A study of Mus musculus with 2 samples.

Results

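The 6 mouse genes that encode the chains of type IV collagen, Col4a1 to Col4a6, were examined in glomeruli of mice with experimental lupus nephritis. They were taken as every gene probe of these genes, named through its RefSeq accession, which gave 9 probes on 18 spots, among 39429 gene probes for 20659 named genes. Of the 6 genes, 4 had 1 probe, Col4a6 had 2 and Col4a4 had 3. All 9 probes were well above background on both arrays, and 7 of them were brighter than the median measured gene.

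Total RNA came from glomeruli, the filtering units of the kidney, which were collected with magnetic beads from enzyme-digested renal cortex. A single array was made for mice with Sirpa deleted in podocytes (Sirpa-/-) and 1 for wild-type (WT) mice. Both groups were male, 8 months old, and had received 1 intraperitoneal injection with 0.5 ml of the lupus-inducing hydrocarbon mixture pristane 4 months before. No uninjected mice were analysed here. Podocytes are the epithelial cells of the glomerular filter, and the product of Sirpa, SIRPα, is a receptor that restrains phagocytes on binding CD47. The sources used here give neither the promoter that drove the deletion nor the number of animals behind each array, and the series design text speaks of podocytes where the sample labels speak of glomeruli. The study's title asks whether loss of SIRPα makes podocytes present antigen through SYK, so matrix genes lie outside its stated question. Since each group had 1 array, nothing was replicated, no test was made, and the differences describe these arrays and not the groups at large. In such bulk RNA, fewer cells of a type and less RNA per cell cannot be told apart.

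Type IV collagen forms the sheet-like network of basement membranes. Its chains fold in trimers of fixed composition: Col4a1 with Col4a2 in nearly all basement membranes, Col4a3 with Col4a4 and Col4a5 in the mature glomerular basement membrane, and Col4a5 with Col4a6 in Bowman's capsule. Podocytes are known as the source of the Col4a3, Col4a4 and Col4a5 chains, whose mutations cause Alport syndrome, and the Col4a3 chain carries the Goodpasture autoantigen. Endothelial and mesangial cells are known to make the Col4a1 and Col4a2 chains.

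The genes lie in head-to-head pairs, on chromosome 8 (Col4a1 and Col4a2), chromosome 1 (Col4a4 and Col4a3) and chromosome X (Col4a6 and Col4a5). In the GRCm38.p6 annotation Col4a1 spans 11198423 to 11312889 and Col4a2 spans 11312805 to 11449287, so they overlap by 85 bases. Col4a4 spans 82448419 to 82587034 and Col4a3 spans 82586921 to 82722059, an overlap of 114 bases. Col4a6 spans 141165403 to 141474095 and Col4a5 spans 141475370 to 141689236, which leaves 1274 bases between them. The probes' own positions are not given in the files. The promoter windows of 4 members, at least 1 of each pair, are printed because the partners of a pair are read against each other in what follows. Each runs from 250 bases before to 50 bases after the start site that the window table, from RefSeq, uses for the gene. That site lies inside the outermost gene end given above, by 185 bases for Col4a4, 63 for Col4a1, 49 for Col4a5 and 19 for Col4a6. The windows read 5′ to 3′ on the gene's strand, and capitals mark matches on either strand to the GC box, which reads GGGCGG, or to the CCAAT box. The TATA box, searched as TATAAA, and a homeodomain core, searched as TAATTA, would be in capitals too.
Col4a1 promoter (GRCm38.p6, chr8:11312777-11313076, minus strand): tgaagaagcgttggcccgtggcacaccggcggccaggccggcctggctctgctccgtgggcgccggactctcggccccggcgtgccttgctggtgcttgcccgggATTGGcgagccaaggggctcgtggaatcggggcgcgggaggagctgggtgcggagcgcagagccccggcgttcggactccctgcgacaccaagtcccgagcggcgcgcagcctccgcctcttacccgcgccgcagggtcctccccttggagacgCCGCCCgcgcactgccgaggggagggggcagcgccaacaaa
Col4a4 promoter (GRCm38.p6, chr1:82586800-82587099, minus strand): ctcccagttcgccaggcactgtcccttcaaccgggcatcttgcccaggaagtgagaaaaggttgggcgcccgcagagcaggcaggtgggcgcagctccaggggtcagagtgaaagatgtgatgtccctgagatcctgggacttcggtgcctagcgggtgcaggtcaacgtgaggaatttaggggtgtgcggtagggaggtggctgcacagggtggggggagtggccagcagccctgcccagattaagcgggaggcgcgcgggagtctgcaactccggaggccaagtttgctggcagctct
Col4a5 promoter (GRCm38.p6, chrX:141475169-141475468, plus strand): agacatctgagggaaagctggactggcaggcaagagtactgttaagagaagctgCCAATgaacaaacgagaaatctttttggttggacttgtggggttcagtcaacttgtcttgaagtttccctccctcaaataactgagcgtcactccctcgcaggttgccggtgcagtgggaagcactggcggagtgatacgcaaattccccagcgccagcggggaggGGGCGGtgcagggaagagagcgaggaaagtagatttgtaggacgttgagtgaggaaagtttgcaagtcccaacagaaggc
Col4a6 promoter (GRCm38.p6, chrX:141474027-141474326, minus strand): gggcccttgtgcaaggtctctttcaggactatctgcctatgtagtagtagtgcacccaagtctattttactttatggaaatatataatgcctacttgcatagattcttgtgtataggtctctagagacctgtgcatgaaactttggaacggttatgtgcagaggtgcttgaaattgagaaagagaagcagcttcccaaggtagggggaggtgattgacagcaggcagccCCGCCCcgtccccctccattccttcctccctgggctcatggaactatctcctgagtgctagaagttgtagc
The Col4a1 window holds the annotated start of Col4a2, and the Col4a4 window that of Col4a3. The windows of Col4a1 and Col4a2 share 78 bases. A GC box was matched once in the windows of Col4a1, Col4a5 and Col4a6, 3 times in that of Col4a2 and 0 times in that of Col4a4, and 35.7% of 32851 mouse windows of this length hold it. The Col4a1 match lies in the shared bases and is the same site as a match counted for Col4a2. CCAAT was matched once each in the windows of Col4a1, Col4a2 and Col4a5, against 37.4% of all windows. The TATA box (13.6% of all windows) and the homeodomain core (5.29%) were matched in 0 of the 5 member windows, and 0 matches overlapped each other. The windows ran from 74.0% G and C with 37 CpG sites for Col4a1 to 48.3% with 3 CpG sites for Col4a6, against a median of 52.7% with 7 sites. Of the members, 5 had a window and Col4a3 had none.

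Signals below are processed signals scaled so that the 75th percentile of gene probes on each array equals 1000. They give the strength of a probe, so levels of different genes cannot be set against each other. Differences are log2 values, array labelled Sirpa-/- minus WT array. The scanner software's own error estimate was at most 11.1% of each member's signal, or 0.20 to 0.22 on a log2 difference. Over 360 probes spotted 10 times, single-spot differences at matched positions had a median SD of 0.07, and 0.12 at unmatched positions. These errors cover the arrays alone and not the animals.

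Sirpa, the targeted gene, gave a scaled signal of 15616 on the array labelled Sirpa-/- and 10043 on the WT array, 1.55-fold higher. This goes against the label, and the files do not show whether its single probe lies in the deleted part. Every direction given is that of an array by its label. All 8 podocyte markers, among them nephrin (Nphs1), were well above background on both arrays, as were all 7 glomerular endothelial and all 6 mesangial markers.

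None of the type IV collagen genes differed by 2-fold between the arrays. By a size of 2-fold, 0 of 6 lay higher on the array labelled Sirpa-/-, a size that 1.56% of 18239 measured genes reached, and 0 of 6 lay lower, which 1.67% did. By a size of 1.2-fold, 1 of 6 (Col4a3) lay higher, against 14.3% of measured genes, and 1 of 6 (Col4a6) lay lower, against 15.2%, so the members' shares lie near those of all genes. The median log2 difference of the 6 genes was 0.04, against 0.00 over all measured genes. They ran from -0.41 for Col4a6 to 0.30 for Col4a3, with 4 genes above 0 and 2 below. Of the 6, 3 lay between the quartiles of all measured genes (-0.15 and 0.15) and all 6 within the central 95% (-0.84 to 0.79). A count of 0 of 6 beside shares this small is no result about these genes in particular.

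**Figure D1:**
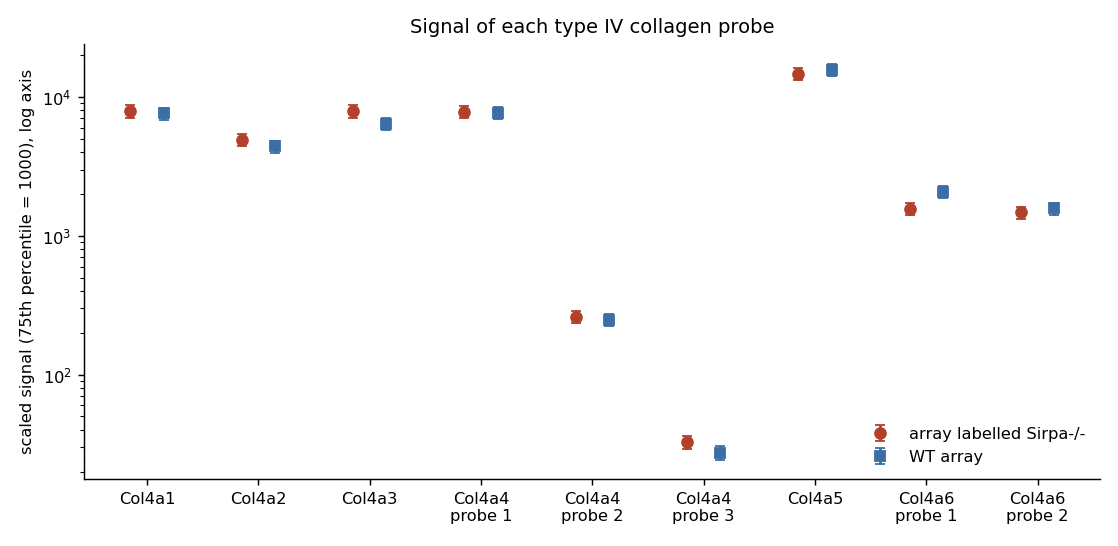
Scaled signal (log axis) of each of the 9 type IV collagen probes on the array labelled Sirpa-/- (circles) and the WT array (squares); bars are the software's error estimate. In each probe the signals lie close together, and the widest gap is that of the first Col4a6 probe, 1566 on the array labelled Sirpa-/- and 2082 on the WT array.

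Col4a1 encodes the chain that, with that of Col4a2, makes the network of nearly every basement membrane. It had the firmest measurement, since its probe (A_51_P124254) was spotted 10 times. The spots ran from 7370 through a median of 7776 to 8665 on the array labelled Sirpa-/-, and from 7172 through 7662 to 8043 on the WT array. The ranges of the spots overlap over most of their length. The means were 7909 ± 421 on the array labelled Sirpa-/- (SD, n = 9 spots) and 7612 ± 330 on the WT array (SD, n = 10 spots), where the software marked 1 spot of the array labelled Sirpa-/- as an outlier, and that spot was left out. Spot by spot at the same position, the 9 unmarked pairs gave 0.06 ± 0.03 (SD), and all 9 lay above 0. The marked spot gave -0.08. Averaging each array's unmarked spots gave 0.05, a 1.04-fold signal. These spots share 1 RNA per array, so the SD is technical.

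**Figure D2:**
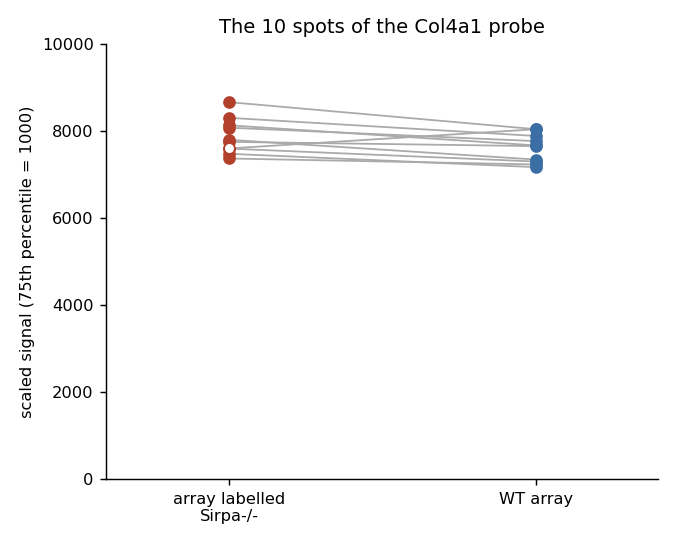
Scaled signal of the 10 spots of the Col4a1 probe on the array labelled Sirpa-/- (left) and the WT array (right), with lines joining spots at the same position; the open circle is the spot the software marked. Spots lie between 7172 and 8665, and 9 of 10 lines slope the same way by a small amount.

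Col4a2, the partner of Col4a1 in the same trimer, had a signal of 4925 on the array labelled Sirpa-/- and 4399 on the WT array. Its log2 difference of 0.16 ± 0.20 (software error, 1 spot) was smaller than the software's error. It lay 0.11 from that of Col4a1, less than the software's error for Col4a2 and more than the median SD of 0.07 between single spots. For 1434 genes with a pair of probes above the median signal, the gap between their differences also had a median of 0.11. These measures of error do not settle whether the partners differed.

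The chains of the mature glomerular basement membrane had differences on both sides of 0. Those of Col4a5 and of the brightest Col4a4 probe were smaller than the software's error, so no direction is settled for them. Col4a3, which carries the Goodpasture antigen, had 7900 on the array labelled Sirpa-/- and 6438 on the WT array, a 1.23-fold signal and the highest difference of the 6 genes. The log2 difference of 0.30 ± 0.20 (software error, 1 spot) exceeded the spread between spots and the software's error. It lay outside the quartiles of all measured genes and well inside their central 95%. Col4a3 had only 1 probe, so its difference could not be checked on another. For 1434 genes with a pair of probes above the median signal, the gap between their differences had a 90th percentile of 0.32.

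Col4a4, which shares its promoter region and its trimer with Col4a3, was read by 3 probes. The brightest (A_55_P2143832) had 7831 on the array labelled Sirpa-/- and 7698 on the WT array, a log2 difference of 0.02. The next (A_55_P2009918) had 261.4 on the array labelled Sirpa-/- and 246.7 on the WT array, a difference of 0.08. The dimmest (A_55_P2143837) had 32.5 on the array labelled Sirpa-/- and 27.4 on the WT array, a difference of 0.24 ± 0.22 (software error). All 3 lay above 0 and only the dimmest exceeded its error.

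Col4a5 encodes the X-linked chain of both the glomerular basement membrane trimer and the Bowman's capsule trimer. It had 14679 on the array labelled Sirpa-/- and 15771 on the WT array, a log2 difference of -0.10 ± 0.20 (software error, 1 spot). Its direction was thus opposite to that of Col4a3 and of the 3 Col4a4 probes, at a size below its error. The differences of Col4a3, Col4a4 and Col4a5 together spanned 0.40, and that between Col4a4 and Col4a3 was -0.27, against 0.29 from the software's errors of both single-spot differences.

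Col4a6, whose chain joins that of Col4a5 in Bowman's capsule, had the lowest difference. Its brighter probe (A_52_P447196) had 1566 on the array labelled Sirpa-/- and 2082 on the WT array, a log2 difference of -0.41 ± 0.20 (software error, 1 spot). This was the only one of the 9 probes whose difference exceeded 2 software errors. It did so narrowly, and that error is nearly a fixed share of the signal. The other probe (A_52_P516409) had 1475 on the array labelled Sirpa-/- and 1573 on the WT array, a difference of -0.09 ± 0.20. Both probes were lower on the array labelled Sirpa-/-, but their differences lay 0.32 apart. For 1434 genes with a pair of probes above the median signal, that gap had a median of 0.11 and a 90th percentile of 0.32. The size of the Col4a6 difference is therefore not settled by these probes, and the mean of both was -0.25. Read against its pair partner Col4a5 (-0.10), the brighter probe lay lower by 0.31, against 0.29 from the software's errors of both single-spot differences. The other probe, at -0.09, lay close to Col4a5, so whether these partners differed is not settled either.

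**Figure D3:**
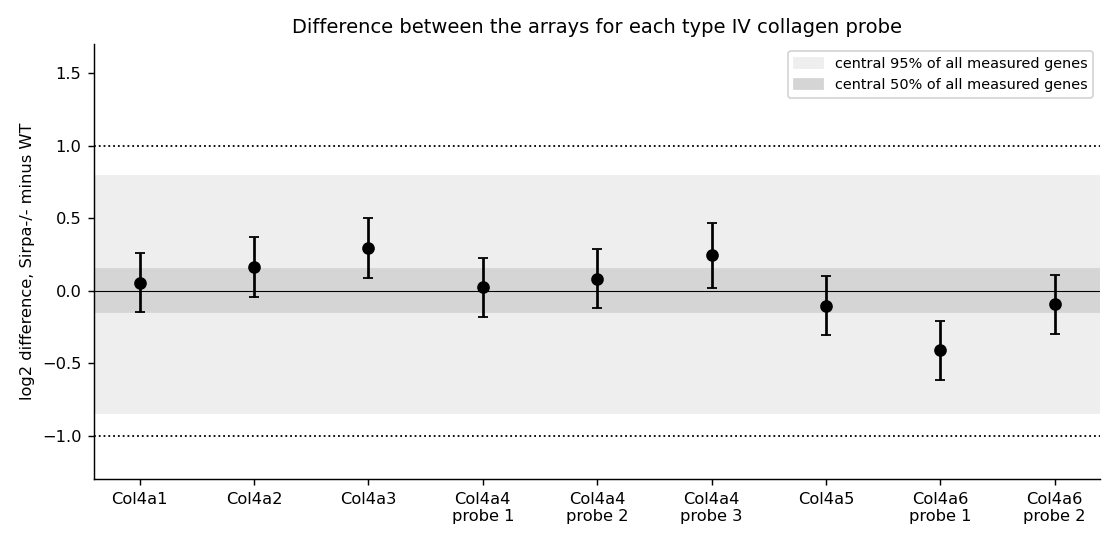
Log2 difference (array labelled Sirpa-/- minus WT array) of each type IV collagen probe, with the software's error as bars; the dark and light bands hold the central 50% and 95% of all measured genes, and dotted lines mark 2-fold. Values run from -0.41 to 0.30, and 6 probes lie above 0 and 3 below.

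Genes beside the 3 pairs on their chromosomes were also close to 0. The 12 nearest measured genes, 2 on each side of each pair, ran from -0.21 to 0.22, with 0 at 2-fold. Each pair has a gene of an insulin receptor substrate, an adaptor of insulin signalling, among them: Irs2 (-0.21) beside Col4a1 and Col4a2, Irs1 (0.20) beside Col4a4 and Col4a3, and Irs4 (0.22) beside Col4a6 and Col4a5.

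Markers of the cells that make these chains are given as measured, and their part in the values above was not tested. Podocyte markers had a median log2 difference of 0.12, from -0.25 to 0.63, with 6 of 8 above 0. The scaled signals of their brightest probes summed to 402705 on the array labelled Sirpa-/- and 369224 on the WT array. Such sums are weighted towards genes with bright probes. Within this sum, Nphs1 had 46784 on the array labelled Sirpa-/- and 30229 on the WT array. Endothelial markers had a median of -0.07 with 2 of 7 above 0, and sums of 218673 on the array labelled Sirpa-/- and 235203 on the WT array. Mesangial markers had a median of -0.13 with 2 of 6 above 0, and sums of 99942 on the array labelled Sirpa-/- and 115973 on the WT array. Of 5 parietal epithelial markers, the cells of Bowman's capsule, 4 were measured, from -0.68 for Pax8 to 0.54 for Krt18, and Krt8 was above background on the array labelled Sirpa-/- alone.

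Markers of several other cell types differed more between the arrays. The 7 proximal tubule markers all lay below 0 (median -0.27; sums of 5581 on the array labelled Sirpa-/- and 8008 on the WT array). The 8 distal nephron markers had a median of 0.91 with 2 at least 2-fold higher, and sums of 3489 on the array labelled Sirpa-/- and 2005 on the WT array. Most of each distal sum was Umod, at 2621 on the array labelled Sirpa-/- and 1341 on the WT array. The 2 past 2-fold had low signals, in the same order 112.6 and 19.5 for Slc12a3 and 60.4 and 23.0 for Calb1. The 4 erythroid genes were all at least 2-fold higher (median 1.56; sums of 47867 on the array labelled Sirpa-/- and 15617 on the WT array). Among 6 measured leukocyte markers, which ran from -0.91 for the macrophage gene Adgre1 (-0.73 on its other probe) to 1.87 for the B-cell gene Cd79b, 2 were at least 2-fold higher and 1 lay below 0, with sums of 3413 on the array labelled Sirpa-/- and 2535 on the WT array. Fibroblast markers had a median of 0.36 over 5 genes, 2 of them below 0 and Dcn lowest at -0.79, with sums of 15282 on the array labelled Sirpa-/- and 11615 on the WT array. Most of each fibroblast sum was Col1a2, at 14138 on the array labelled Sirpa-/- and 10517 on the WT array. Of 5 smooth muscle and renin cell markers, only Myh11 reached 2-fold higher, at dim signals of 33.8 on the array labelled Sirpa-/- and 15.4 on the WT array, and the median was 0.07.

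Genes for folding, modification and export of collagen lay near 0 as a list. All 22 were measured, with 0 at 2-fold in either direction and a median of -0.05. Among all measured genes 1.56% were 2-fold higher and 1.67% lower, so a count of 0 is no result about this list. The lowest was Serpinh1 (HSP47), the collagen chaperone of the endoplasmic reticulum, at -0.51 (20057 on the array labelled Sirpa-/- and 28499 on the WT array). P4ha1, a catalytic subunit of the prolyl hydroxylase that stabilises the triple helix, gave -0.41 and -0.36 on its 2 probes. The highest were the prolyl hydroxylase P3h2, at 0.28, and Klhl12, an adaptor of the ubiquitin ligase that enlarges vesicles for procollagen export, at 0.15.

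The genes that cross-link or link the network showed the lowest median of the lists. Of 11 genes, 10 lay below 0 and 1 was at least 2-fold lower, a size that 1.67% of all measured genes reached. The median was -0.47, against 0.00 over all measured genes. The list's median ran from -0.49 to -0.30 over 12 other ways of processing. Loxl2, a lysyl oxidase known to cross-link type IV collagen, had 2421 on the array labelled Sirpa-/- and 5474 on the WT array, 2.26-fold lower. A dim probe of Loxl2 also gave -1.15 (42.7 on the array labelled Sirpa-/- and 94.6 on the WT array), while another gave -0.08 (216.2 on the array labelled Sirpa-/- and 229.1 on the WT array). The Loxl2 probes therefore disagree, and their mean of -0.80 is short of 2-fold, while their median of -1.15 is past it, as is Loxl2 under each of the 10 other settings. Peroxidasin (Pxdn), which forms the sulfilimine bonds between type IV collagen trimers, gave -0.26 and -0.22 on its 2 probes. Nidogen 2 (Nid2), which bridges laminin and type IV collagen, gave -0.61, and the collagen-binding glycoprotein Sparc gave -0.10 and -0.03. The only member above 0 was the lysyl oxidase Lox, at 0.64 and 0.33 on its 2 probes, at dim signals of 72.0 on the array labelled Sirpa-/- and 46.1 on the WT array for the brighter.

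**Figure D4:**
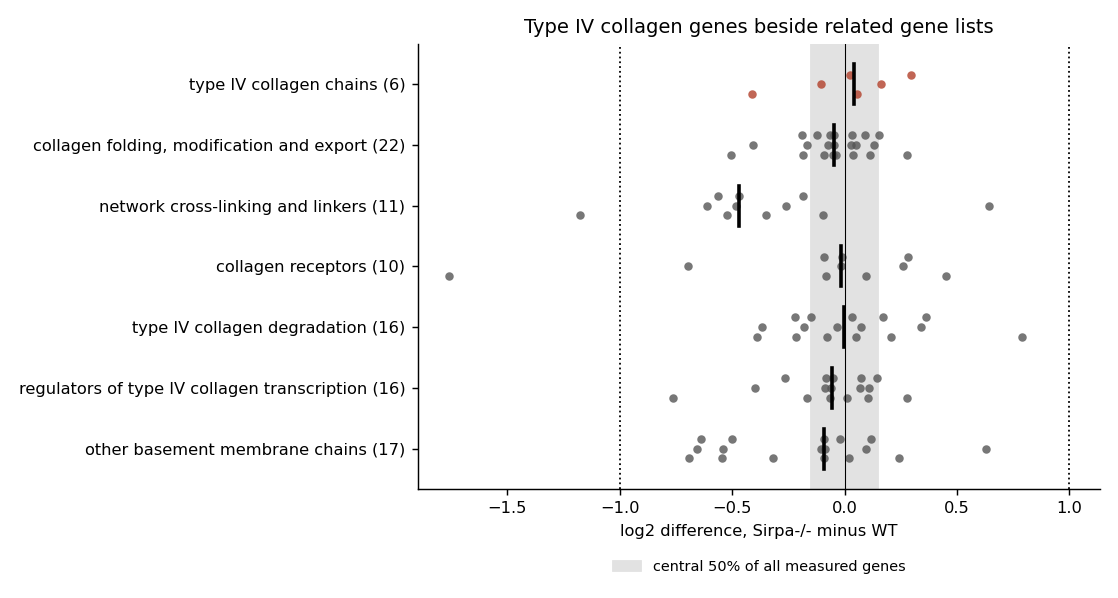
Log2 difference (array labelled Sirpa-/- minus WT array) of each measured gene of 7 lists, with the number measured in brackets; black ticks are list medians, the band holds the central 50% of all measured genes, and dotted lines mark 2-fold. The type IV collagen genes have a median of 0.04 and the cross-linking and linker genes one of -0.47.

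Receptors of collagen had a median of -0.01 over 10 measured genes of 11 (0.10 with the mean or median of a gene's probes). Against 1.67% of all measured genes, 1 was at least 2-fold lower. This was Itga11, the partner of integrin β1 in a receptor known for fibrillar collagens, 3.39-fold lower at 36.3 on the array labelled Sirpa-/- and 122.9 on the WT array; with normexp background correction its difference was -0.88, short of 2-fold. For the receptors known to bind type IV collagen, Itga1 gave -0.01 on its brighter probe and 0.23 on a dim one. Itga2 gave 0.10 at signals close to background, and their partner Itgb1 0.26 and 0.30. The discoidin domain receptors gave -0.02 for Ddr1, and for Ddr2 -0.08 on its brighter probe and 0.30 on a dim one. The adhesion receptor Adgrg6, which also binds type IV collagen, gave 0.28, and the platelet receptor Gp6 gave 0.45 at a dim 11.1 on the array labelled Sirpa-/- and 8.13 on the WT array. The uptake receptor Mrc2 gave -0.70 on its brighter probe and 0.24 on a dim one.

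Of 16 genes that degrade type IV collagen or restrain its degradation, 0 reached 2-fold and the median was 0.00, with 8 on each side of 0. That size was reached upward by 1.56% and downward by 1.67% of all measured genes. The inhibitor Timp4 was highest, at 0.79 (186.9 on the array labelled Sirpa-/- and 108.0 on the WT array), followed by the stromelysin Mmp3 at 0.36. The stromelysin Mmp10 (-0.39, at dim signals) and the cathepsin Ctsk (-0.37) were lowest.

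Of 16 genes for regulators of type IV collagen transcription, 0 reached 2-fold and the median was -0.06. Upward 1.56% and downward 1.67% of all measured genes reached 2-fold. Lmx1b, a homeodomain factor of podocytes known as a regulator of Col4a3 and Col4a4, gave -0.17 and -0.03 on its 2 probes. Wt1, a master factor of podocytes, was the highest at 0.28, and Sp1, which binds GC boxes, followed at 0.14. The growth factor gene Tgfb2 was lowest, at -0.76 (213.5 on the array labelled Sirpa-/- and 362.5 on the WT array) with 138.9 on the array labelled Sirpa-/- and 277.4 on the WT array for its other probe, and Tgfb3 gave -0.40.

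The other chains of basement membranes had a median of -0.09 over 17 measured genes, 5 of them above 0, and 0 at 2-fold. Over all measured genes, 1.56% were higher and 1.67% lower by that size. Of the laminin chains of the mature glomerular basement membrane, Lama5 gave 0.02 and Lamb2 0.12, which was 0.26 to 0.29 under 3 other background corrections. The third, Lamc1, named after its value was seen, gave -0.32 (4696 on the array labelled Sirpa-/- and 5853 on the WT array). The laminin chain Lama4 gave -0.66, and the fibulin Fbln1 (0.63 and 0.65 on its probes, at dim signals) and the laminin chain Lama2 (0.24) were highest.

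The collagen differences kept their direction under each of 12 other ways of scaling, background correction, filtering and combining probes. For the 4 genes with 1 bright probe, the settings for filtering and combining probes could not change the value. Under normexp with the 75th percentile, the median of all measured genes was itself 0.074, beside 0.066 for Col4a1 and 0.079 for the collagen median. In that setting a difference above 0 of this size is that of a typical gene. Col4a3 ran from 0.24 to 0.31, Col4a2 from 0.15 to 0.18, Col4a1 from 0.04 to 0.09 and Col4a5 from -0.15 to -0.07. Col4a4 ran from 0.01 to 0.12, and Col4a6 from -0.53 to -0.25. These settings process the same arrays, so this says nothing about other animals.

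**Figure D5:**
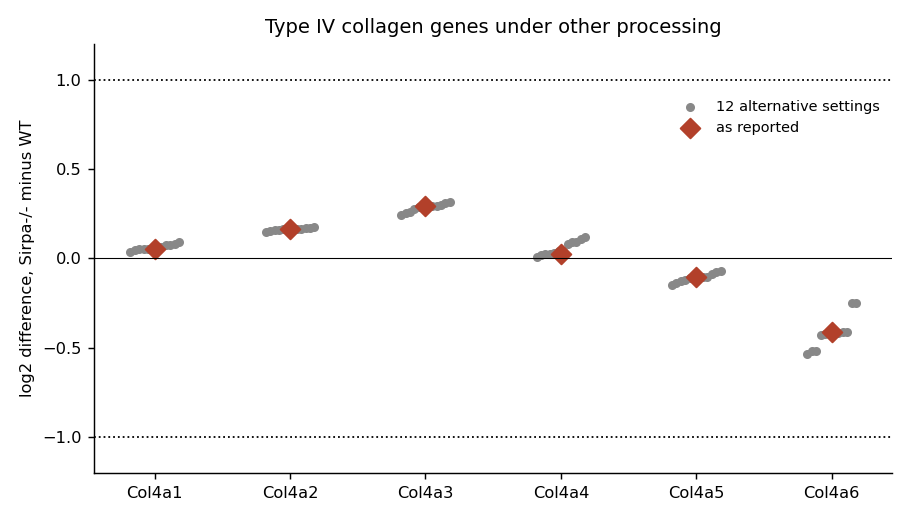
Log2 difference (array labelled Sirpa-/- minus WT array) of each type IV collagen gene as reported (diamonds) and under 12 other settings (grey points, sorted within each gene); dotted lines mark 2-fold. Points of a gene stay on one side of 0, with the widest spread for Col4a6, from -0.53 to -0.25.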

How the data were processed

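Total RNA of glomeruli was hybridised to Agilent one-colour arrays, 1 per group. The deposited scanner files hold the fluorescence intensity of each spot. The authors' software, per the file headers, was Agilent Feature Extraction 11.0.1.1 (9.1 in the submitters' processing notes), and the processed values were background-subtracted and spatially detrended but not normalized across arrays. Other columns are flags of 0 or 1, per the file headers. The authors' deposited table of log2 values, made by steps that the sources used here do not give, served as an alternative only.

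The members and gene lists were chosen with earlier results of these data known. Unmarked spots of a probe were averaged as log2, and each array's 75th percentile over gene probes (processed signals of 1109 on the array labelled Sirpa-/- and 1157 on the WT array) was set to 1000. A probe counted as measured where the software called more than 50% of its spots well above background on each array. 0 gene spots were saturated. Through unversioned RefSeq accessions in a GRCm38.p6 gene table, 27234 probes (69.1%) were named. The arrays were designed on mm9, so no probe position was taken. The brightest probe stood for a gene, and all probes of members are given. Genes named from the lists are the 2 highest, the 2 lowest and any past 2-fold, plus 10 fixed genes; some of them are not reported here. The number of arrays limits precision, and no p-value was computed. Python 3.11.15, pandas 2.3.3, limma 3.58.1 (normexp) and statsmodels 0.14.6 (loess) were used. Only the scaling was tested on simulated data, with planted changes larger than the differences of the collagen genes. Background correction, filtering, naming and the choice among probes of a gene were not part of that test.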

Additional observations from a re-analysis of the deposited data

How the results depend on the processing

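A value is said to move when it shifts by more than 0.07, the median SD of single-spot differences. Of the collagen results, Col4a1, Col4a2, Col4a3, Col4a5 and the median of the 6 genes moved under 0 of 12 settings. The 4 genes named here have 1 bright probe each, so filtering and combining probes could not move them. At 1.2-fold in place of 2-fold, 1 collagen gene was higher (14.3% of all measured genes were) and 1 lower (15.2%). Normexp on median signals moved Col4a6 to -0.52 (75th percentile) and -0.53 (quantile), its second probe to -0.0208 (75th percentile), and Col4a4 to 0.0941 and its dimmest probe to 0.0903 (quantile). Median signal minus local background gave 0.11 for Col4a4, 0.14 for its dimmest probe, -0.52 for Col4a6 and -0.0177 for its second probe. The mean of a gene's probes gave 0.12 for Col4a4, and mean and median alike gave -0.25 for Col4a6, by their construction; otherwise the cause was not tested. The cross-linking list's median was -0.30 with the mean of a gene's probes, where Loxl2 gave -0.80. Normexp was chosen in this form after the data were seen, since the files hold no mean signal, and the planned naming by gene name was not run, as the files have no such column. With normexp and the 75th percentile, 58.9% of the genes past 2-fold were higher, against 48.4% as reported, and 113 were higher and 79 lower, against 285 and 304; with normexp and quantile normalization 53.1% were, 95 higher and 84 lower; without the filter 670 were higher and 613 lower, and with a stricter one 80 and 103. The sign turned in 2 settings for Ddr1, Ddr2, Itga1 and Lama5 and in 1 for Gp6, Itga2 and Mmp10, all dim or close to 0 as reported. The collagen receptor median turned in 2 settings and the degradation median lay above 0 in 6 of 12, from -0.08 to 0.07. No paired analysis was possible because each group has 1 array.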
